A study of Mus musculus with 8 samples.

Results

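The genes described here are 10 inhibitors of Wnt signalling, *Wif1*, *Dkk2*, *Dkk3*, *Sfrp1*, *Sfrp2*, *Sfrp4*, *Frzb*, *Nkd1*, *Nkd2* and *Notum*, followed over the cell types of the adult mouse liver. They were taken by symbol from the count table, which held all 10 of them among 46517 genes. Wnt ligands are secreted, lipid-modified proteins that bind Frizzled receptors and LRP co-receptors and thereby stabilise β-catenin, which then acts with TCF/LEF factors on transcription. In the liver this pathway is known for setting the gene programme of hepatocytes around the central vein. It is held in check outside the cell by proteins that capture or cut the ligand (WIF1, the SFRP family with FRZB, NOTUM) or block the co-receptor (DKK2), and inside the cell by Naked proteins (NKD1, NKD2), which bind Dishevelled.

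The data were Smart-seq2 transcriptomes of 3491 single cells in 8 samples, a male and a female pool for each of 4 classes. The mesenchymal class held 998 male and 339 female cells, the endothelial class 655 and 451, the immune class 255 and 396, and the epithelial (parenchymal) class 358 and 39. Cells came from untreated adult C57BL6/J mice and from heterozygous reporter lines (Pdgfrb-GFP, Pdgfra-H2bGFP, Acta2-GFP, Cldn5-GFP, Cspg4-dsRED and their combinations). They were sorted by reporter signal or by antibodies against CD31, VE-cadherin, EPCAM, CD68 and PDGFRα, and hepatocytes were taken without enrichment, so cell numbers follow the sort and not the tissue. No label named the mouse of a cell, and the pool of 1 sex was therefore the replicate. In sums of cells, fewer expressing cells and less RNA per cell cannot be told apart. Each p-value measures the spread between sums of cells from such pools, which may be technical, and the clusters were made by the authors on the same transcriptomes.

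A median of 228708 counts per cell (47063 to 1128421) lay on genes. Levels are CPM, counts scaled to a common total, of the summed counts of a cluster and pool. All 5 mesenchymal markers, summed, were at 11834 CPM in the mesenchymal class and at 25.5 to 139 CPM in the others. All 339 female mesenchymal cells came from 1 plate of 22, and on it most cells held a low count of many members. In m2, for example, *Sfrp1* had at least 1 count in 109 of 110 female and 71 of 127 male cells, but at least 20 counts in 5 and 1 of them, and the cause was not tested. Shares of cells are therefore given at 20 counts or more, and since the reads carried no molecular identifiers, counts are not independent molecules.

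Summed over the 4 classes, 9 of the 10 genes were higher in mesenchymal cells than in the mean of the other classes, against 9.47% of the 24046 genes tested. The exception was *Notum*. The median log2 fold change of the 10 genes was 6.59, and that of all genes tested was 0.02. *Dkk3*, a dickkopf relative whose effect on Wnt signalling is context-dependent, was measured at 498 CPM (male) and 391 CPM (female) in mesenchymal cells, at 71.1 and 131 CPM in endothelial cells, and at no more than 50.004 CPM elsewhere. *Sfrp1*, a secreted Frizzled-related protein that binds Wnt ligands, stood at 520 and 601 CPM in mesenchymal cells and at most at 5.63 CPM in any other pool. These are class sums, and single clusters of the classes overlapped for both genes. *Dkk3* was at 27.3 CPM in its lowest mesenchymal cluster and at 275 CPM in the endothelial cluster e6. *Sfrp1* was at 7.98 CPM in its lowest mesenchymal cluster and at 19.5 CPM in the endothelial cluster e2.

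*Nkd1*, itself a target of the pathway that it inhibits, was at 257 and 342 CPM in the mesenchymal pools and at 73.9 and 102 CPM in the endothelial pools. Both of these classes lay above the immune (0.867 and 4.45 CPM) and the epithelial pools (4.90 and 2.66 CPM). By the quasi-likelihood test of edgeR, with p-values adjusted after Benjamini and Hochberg, *Nkd1* was higher in mesenchymal cells by 4.97 ± 0.55 (log2, SE; adjusted p = 0.0012, n = 2 pools per class) and in endothelial cells by 2.51 ± 0.54 (adjusted p = 0.027). *Nkd2* had the same order at lower levels, with 59.1 and 66.8 CPM in mesenchymal, 9.37 and 11.3 CPM in endothelial, and at most 0.156 CPM in the other pools. These were the 2 members called higher in endothelial cells, against 5.33% of all genes.

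*Wif1*, which binds Wnt ligands through its WIF domain, had 43.2 CPM (male) and 28.3 CPM (female) in mesenchymal cells and at most 0.132 CPM in the other 6 pools. Its log2 fold change of 9.98 ± 1.20 was the largest of the 10 by edgeR's quasi-likelihood test (Benjamini-Hochberg adjusted p = 0.0016), and with some pools at 0 counts the fitted size depends on the prior count. The remaining mesenchymal values were lower than those of *Dkk3* and *Sfrp1*. *Frzb* had 130 and 57.8 CPM, *Sfrp2* 32.8 and 136 CPM, *Sfrp4* 12.04 and 13.2 CPM, and *Dkk2* 23.6 and 1.93 CPM in male and female cells. *Notum*, the carboxylesterase that removes the lipid from Wnt ligands, was at 20.3 CPM (male) and 1.502 CPM (female) in mesenchymal cells and at 2.13 CPM or less elsewhere (log2 fold change 5.71 ± 1.83; edgeR's quasi-likelihood test, adjusted p = 0.093).

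In immune cells 4 members were lower than in the other classes (*Dkk3*, *Sfrp2*, *Nkd1* and *Nkd2*), against 5.25% of all genes, and in epithelial cells 3 were (*Frzb*, *Nkd1* and *Nkd2*), against 4.05%. The *Nkd2* call in immune cells was lost after thinning to 50000 counts per cell (adjusted p = 0.058), and that of *Frzb* in epithelial cells after thinning (0.059) and with sums per plate (0.075). Per kilobase of exon, which is the scale on which genes can be compared, the mesenchymal order was *Dkk3* (137 CPM per kb), *Sfrp1* (125), *Nkd1* (62.7), *Frzb* (32.5), *Sfrp2* (31.6), *Wif1* (15.7), *Nkd2* (12.8), *Notum* (5.75), *Dkk2* (4.37) and *Sfrp4* (2.97). Neighbours such as *Dkk3* and *Sfrp1* or *Frzb* and *Sfrp2* changed places between the male and the female pool.

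**Figure D1:**
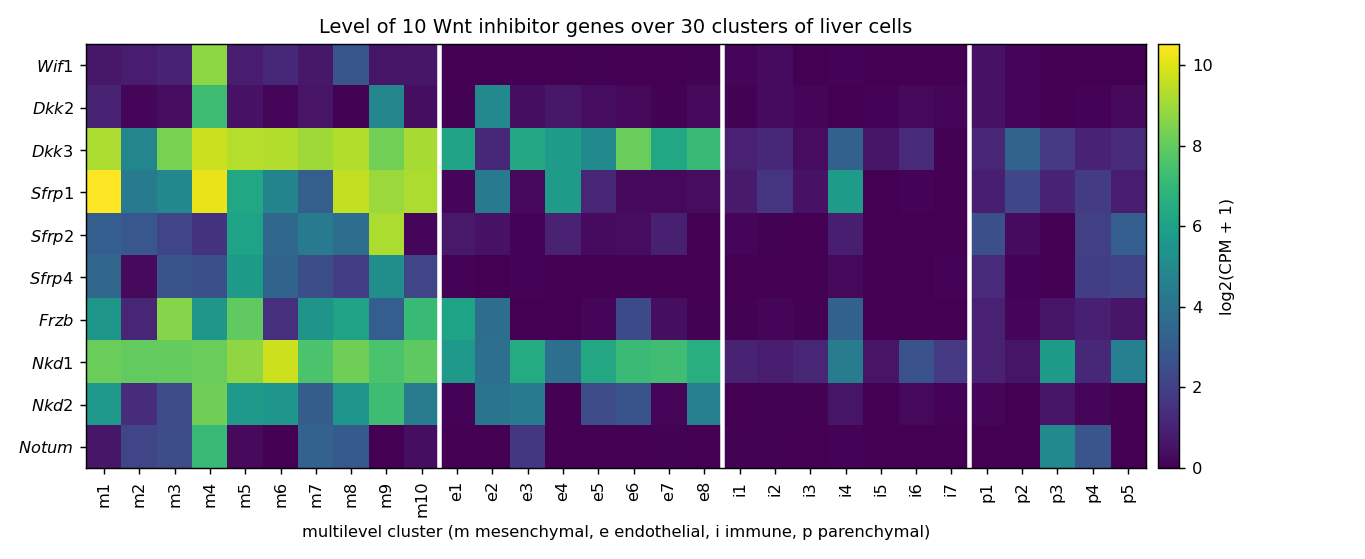
Level of the 10 genes, as log2(CPM + 1) by colour, in the 30 multilevel clusters of the 4 classes (male and female cells summed, columns; white lines separate classes). *Nkd1* reached 10 CPM in 21 clusters and *Dkk3* in 17, whereas *Wif1* did so in m4 alone.

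The clusters differed in how widely each gene was used, as the heat map of cluster levels shows. *Nkd1* reached 10 CPM in 21 of 30 clusters, *Dkk3* in 17, *Sfrp1* in 12, *Nkd2* in 10, *Frzb* in 9, *Sfrp2* in 5 and *Dkk2* in 3. *Sfrp4* and *Notum* did so in 2 clusters each and *Wif1* in 1. These counts include *Notum* in p3 and *Sfrp1* in e4, where the level came largely from 1 cell. They also include *Sfrp1* and *Nkd1* in i4, where cells annotated Cont carried the level. Of all *Wif1* counts in the table, 97.2% lay in the 98 cells of cluster m4, which the authors annotated PeriBilFB (peribiliary fibroblasts). The same cells, a small share of the 3491, held 77.7% of the *Notum*, 67.9% of the *Dkk2* and 36.8% of the *Nkd2* counts. All 7 fibroblast markers listed were at 1 CPM or more in m4 (4203 CPM summed), and the 5 cholangiocyte markers came to 61.4 CPM, with 2 of 5 at 1 CPM or more. The 8 hepatocyte markers summed to 1245 CPM in m4, of which *Cyp2e1* gave 1124 CPM and *Alb* 64.6 CPM, and to between 385 and 1921 CPM in the other mesenchymal clusters. The 5 mural markers came to 446 CPM in m4 (*Acta2* 354 CPM), the lowest sum of the 10 mesenchymal clusters, and the part of these markers in the results was not tested.

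In m4, 5 of the 10 members were higher than in the mean of the other 9 mesenchymal clusters, against 1.31% of the 22365 genes tested. They were *Wif1*, *Dkk2*, *Notum*, *Nkd2* and *Sfrp1*, and none was lower. The median log2 fold change of the 10 was 2.06, beside -0.06 for all genes. The study itself reported *Wif1* and *Nkd2* as enriched in this cluster, and the members were chosen with earlier results known. Their count is therefore no independent test against the share of all genes. *Wif1* reached 362 CPM over 89 male m4 cells and 924 CPM over 9 female ones, and between 0.0468 and 6.03 CPM in every other mesenchymal cluster and pool. At 20 counts or more *Wif1* was seen in 30 of 89 male and 6 of 9 female m4 cells, but in 1 other mesenchymal cell, of m8. Its log2 fold change was 9.32 ± 0.76 (edgeR's quasi-likelihood test, adjusted p = 1.5e-05).

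*Dkk2*, which blocks the LRP co-receptors, was at 168 CPM (male) and 42.7 CPM (female) in m4 cells, where the female value came from 1 cell. Outside m4 it exceeded 1.77 CPM in a single mesenchymal value, the 42.2 CPM of male m9 cells. The fold change over the other clusters was 8.03 ± 1.08 (log2; edgeR's quasi-likelihood test, adjusted p = 0.0012). *Nkd2* reached 293 and 340 CPM in m4, above the 109 and 226 CPM of m9 and the 94.4 CPM or less of every other cluster and pool (3.98 ± 0.61, adjusted p = 0.0029). *Sfrp1*, at 1152 and 1274 CPM, was also high in the portal fibroblasts of m1 (1296 and 1600.0 CPM), and in m4 its log2 fold change was 3.34 ± 0.49 (adjusted p = 0.0020, edgeR's quasi-likelihood test).

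Within m4 *Notum* was found in the male pool alone, at 151 CPM with at least 20 counts in 24 of 89 cells. None of the 9 female cells held a count, which allows up to 33.3% of cells with a count. This limit covers counting error only and does not bound the cells that express the gene. The male counts were uneven over plates as well. The plate with 54 of the 98 cells had 192 CPM, the plate with 16 cells had 24.5 CPM and the plate with 13 cells had 0. The log2 fold change of 7.09 ± 1.67 passed narrowly in edgeR's quasi-likelihood test (adjusted p = 0.048) but not with a replicate block for the pool (5.88, adjusted p = 0.20), and within the female pool the ratio was -1.06, so the call rests on the male cells. *Notum* shares 708 exon bases with the antisense gene *Notumos* and 210 with *Myadml2os*, and because the library was not stranded, reads from these genes cannot be told apart there.

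The other members did not separate m4. *Dkk3* was at 860 and 428 CPM (log2 fold change 0.78 ± 0.35, adjusted p = 0.46 in edgeR), *Nkd1* at 265 and 398 CPM, and *Frzb* at 52.3 CPM (male) but 1.49 CPM (female). *Sfrp2* (0.431 and 13.1 CPM) and *Sfrp4* (5.49 and 0.299 CPM) were low. Per kilobase of exon, with all m4 cells summed, the order was *Sfrp1*, *Dkk3*, *Wif1*, *Nkd2*, *Nkd1*, *Notum*, *Dkk2*, *Frzb*, *Sfrp4* and *Sfrp2*. It held in neither pool. In female cells *Wif1* (381 CPM per kb) was above *Sfrp1* (291 CPM per kb) and *Notum* was at 0, and in male cells *Notum* (62.7 CPM per kb) was above *Nkd2* (60.8 CPM per kb) and *Nkd1* (58.1 CPM per kb).

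**Figure D2:**
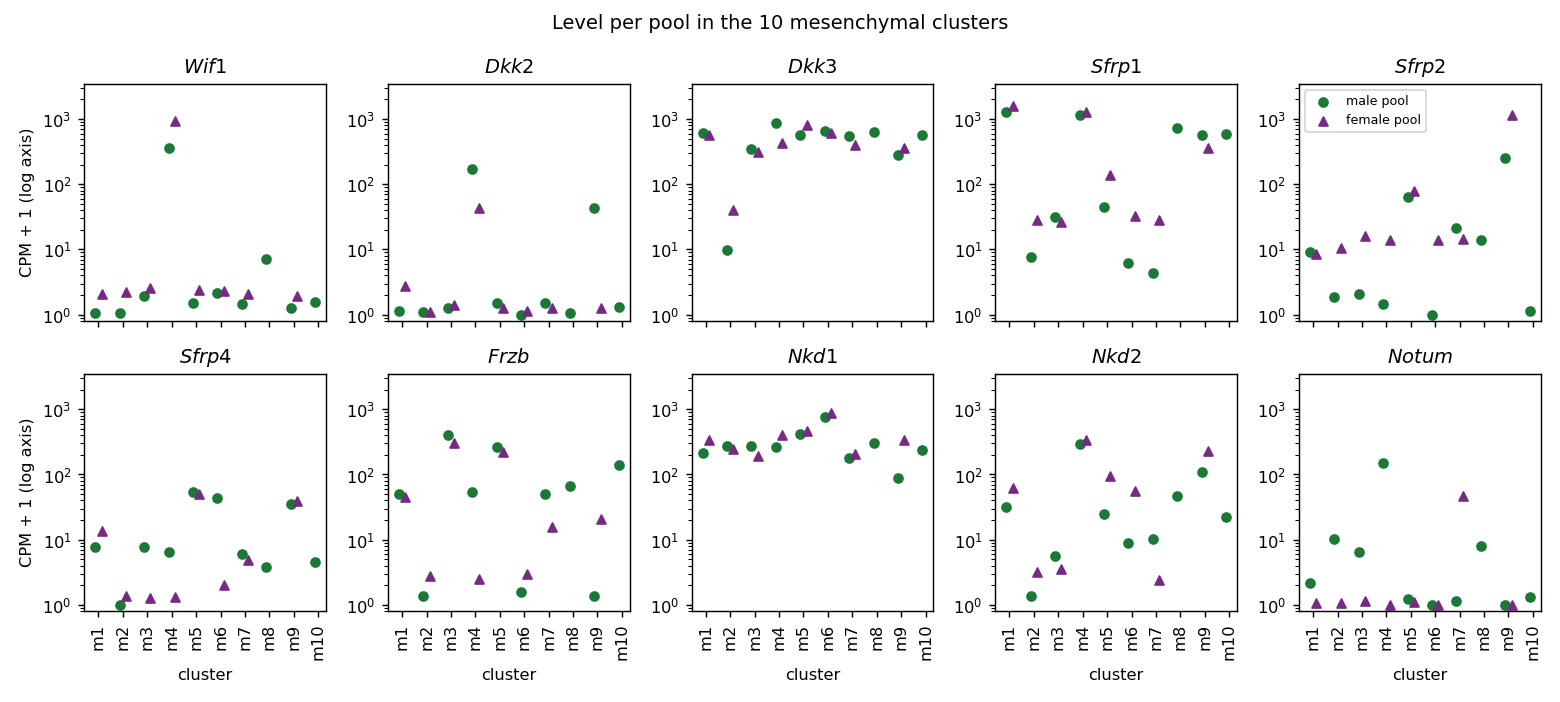
CPM + 1 (log axis) of each gene in the 10 mesenchymal clusters, with the male pool as circles and the female pool as triangles (m8 and m10 had no female cells). *Wif1* stands at 362 and 924 CPM in m4 and at 6.03 CPM or less elsewhere, while *Dkk3* lies between 280 and 860 CPM outside m2 and *Nkd1* between 88.5 and 461 CPM outside m6.

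Within m4 the genes were spread unevenly over single cells. Of its 98 cells, 74 (75.5%) had at least 20 counts of 3 or more of the 10 members, with a median of 4 and a maximum of 7, and 2 cells had none. In the other mesenchymal clusters this share ran from 0.422% in m2 to 49.2% in m1. Of *Wif1*, *Dkk2*, *Nkd2* and *Notum*, 27 cells had none at 20 counts, 33 had 1, 22 had 2, 11 had 3 and 5 had all 4. *Wif1* and *Dkk2* were both present in 9 cells, *Wif1* alone in 27 and *Dkk2* alone in 18, whereas 19 of the 27 *Dkk2* cells also had *Nkd2*. A cell without counts may have lost the transcript in capture, and no test was made of these pairs.

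**Figure D3:**
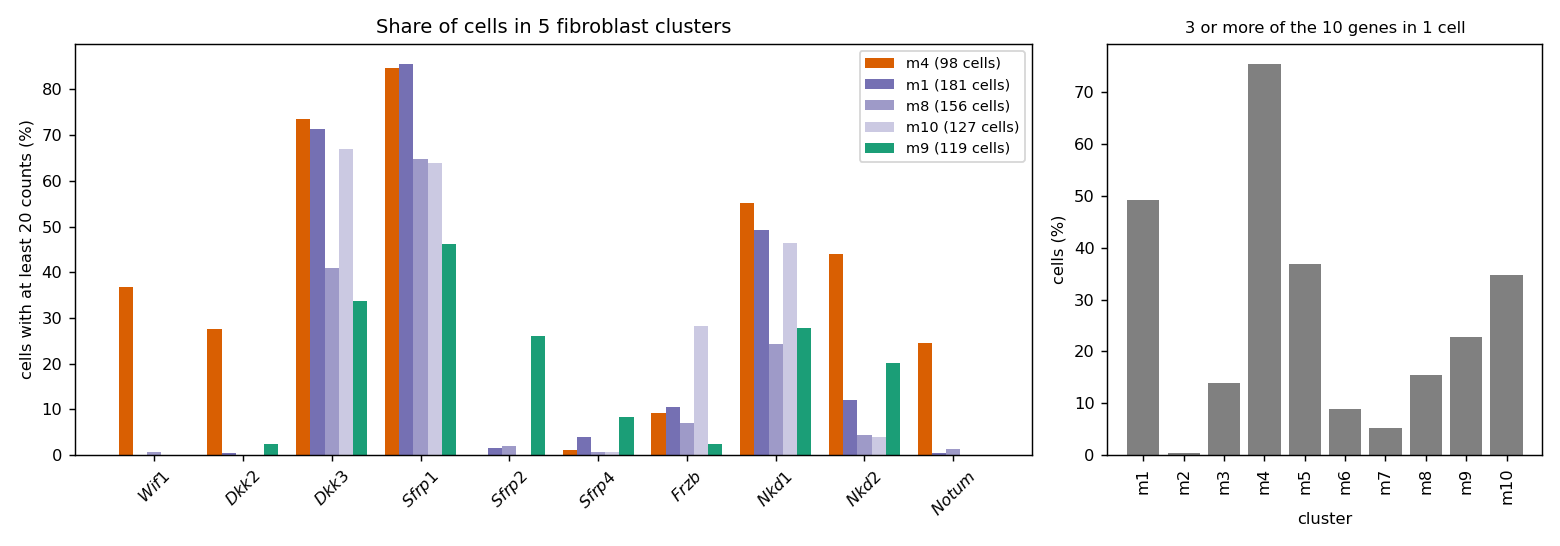
Left, percentage of cells with at least 20 counts of each gene in m4, the portal fibroblast clusters m1, m8 and m10, and m9; right, percentage of cells with at least 20 counts of 3 or more of the 10 genes in each mesenchymal cluster. For *Wif1*, *Dkk2*, *Nkd2* and *Notum* the m4 bar is the tallest of the 5, and for *Sfrp2* and *Sfrp4* that of m9.

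The promoters of *Wif1*, *Dkk2* and *Nkd2* are shown because these genes were highest in m4 in both pools. Each line gives the 250 bases before the RefSeq start site, 5′ to 3′ on the strand of the gene (sequence from RefSeq, GRCm38.p6), with matches to TATAAA or GGGCGG on either strand in capitals. The window of *Wif1* is chr10:121033754-121034003 (+ strand), that of *Dkk2* chr3:132085042-132085291 (+ strand) and that of *Nkd2* chr13:73847632-73847881 (- strand). The gene model used for exon lengths begins *Wif1* at position 121033960, which lies inside this window, so distances hold for the RefSeq start alone.
Wif1: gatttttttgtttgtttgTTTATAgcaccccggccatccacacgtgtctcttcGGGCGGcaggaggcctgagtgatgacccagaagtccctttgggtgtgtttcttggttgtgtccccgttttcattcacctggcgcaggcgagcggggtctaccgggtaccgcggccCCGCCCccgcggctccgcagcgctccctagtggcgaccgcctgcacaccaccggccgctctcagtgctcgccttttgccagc
Dkk2: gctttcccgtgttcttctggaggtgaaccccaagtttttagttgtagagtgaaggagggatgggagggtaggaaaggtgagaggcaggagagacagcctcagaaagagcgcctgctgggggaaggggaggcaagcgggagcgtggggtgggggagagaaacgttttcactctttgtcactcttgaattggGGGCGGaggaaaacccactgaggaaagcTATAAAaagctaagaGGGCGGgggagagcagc
Nkd2: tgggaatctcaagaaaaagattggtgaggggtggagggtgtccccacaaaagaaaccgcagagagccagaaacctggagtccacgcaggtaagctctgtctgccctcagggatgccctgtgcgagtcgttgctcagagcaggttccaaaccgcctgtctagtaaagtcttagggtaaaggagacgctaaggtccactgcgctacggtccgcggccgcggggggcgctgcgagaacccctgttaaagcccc

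*Dkk2* has TATAAA 32 bases before its start and GGGCGG 60 and 17 bases before it. *Wif1* has the reverse complement of TATAAA 232 bases before its start, GGGCGG 197 bases and its reverse complement 82 bases before it, and *Nkd2* has neither motif. In the 300-base windows around all 32851 start sites, 13.6% held TATAAA and 35.7% held GGGCGG. Forms of the TCF/LEF core (CTTTGAA as well as CTTTGAT, further CTTTGTT as well as CTTTGTA, on either strand) were in none of the 6 member promoters that matched (*Wif1*, *Dkk2*, *Nkd2*, *Nkd1*, *Frzb* and *Sfrp2*) and in 16.9% of all promoters. For *Nkd1*, *Frzb* and *Wif1* the RefSeq start also differs from that of the gene model, which for *Nkd1* is at position 88521354 and for *Frzb* at 80447625. A match to letters is a description and names no bound factor.

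Genes of the same pathway, taken from lists of other antagonists, ligands, receptors, R-spondins and targets, were read beside the members in m4. Of 16 other antagonists tested, 3 were higher, *Apcdd1* (5.16 on the log2 scale), *Shisa2* (3.68) and *Dkkl1* (9.23). Of 14 receptors 1 was, *Fzd1* (2.65), and of 13 targets and mediators 2 were, *Sp5* (10.83) and *Tbx3* (4.26). The 11 ligands and the 5 R-spondin and receptor genes tested gave no call. With most other clusters at or near 0 counts, the fitted sizes for *Sp5* and *Dkkl1* depend on the prior count. *Fzd1*, a Frizzled receptor, was at 717 and 528 CPM in m4 and at most 238 CPM in other mesenchymal clusters of either pool. *Sp5*, a transcription factor induced by Wnt signalling, was at 92.3 CPM in male m4 cells and at 0 in the 9 female ones. *Notum* was also at 0 in these 9 cells, which are few, and a difference between the pools was not tested. *Apcdd1* was at 96.1 and 8.07 CPM and *Tbx3* at 76.9 and 1.19 CPM in the male and the female pool. At 20 counts *Sp5* was in 19 m4 cells, of which 10 also had *Notum*, 11 *Wif1*, 11 *Dkk2* and 18 *Dkk3*. *Axin2*, a negative regulator and target of the pathway, was in 39 cells, among them 16 of the 24 cells with *Notum*, 16 of the 27 with *Dkk2* and 12 of the 36 with *Wif1*, and these pairs were not tested.

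**Figure D4:**
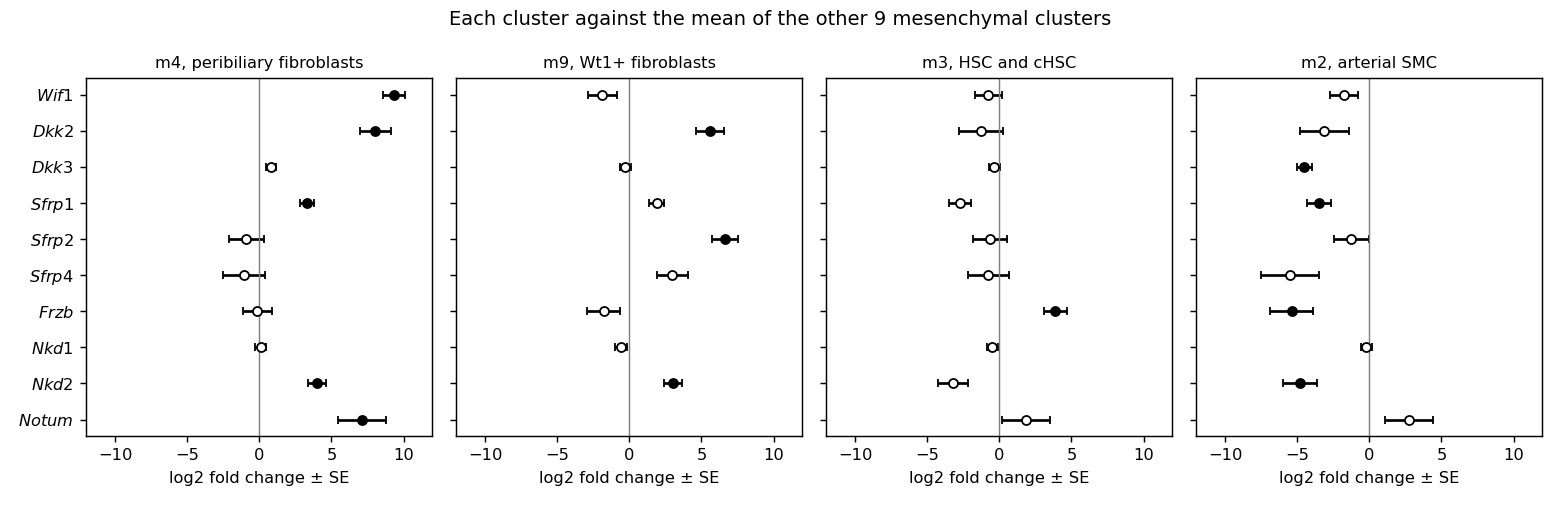
Log2 fold change ± SE of each gene in clusters m4, m9, m3 and m2 against the mean of the other 9 mesenchymal clusters, from edgeR's quasi-likelihood fit. Filled points passed an adjusted p of 0.05 and a log2 fold change of 1, and *Notum* in m9, with 0 counts, is not drawn.

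Cluster m9 held fibroblasts annotated Wt1_FB (113 cells) and 6 cells annotated Mesothelial. Here 3 members were higher, against 3.9% of all genes. *Sfrp2*, a Wnt-binding protein of fibroblasts, was at 256 CPM (male) and 1142 CPM (female) in m9 cells, and at 78.4 CPM at most in each other mesenchymal cluster and pool (log2 fold change 6.63 ± 0.89; edgeR's quasi-likelihood test, adjusted p = 0.00054). At 20 counts it was in 12 of 86 male and 19 of 33 female cells. *Nkd2*, at 109 and 226 CPM, was second to m4 (3.002 ± 0.63, adjusted p = 0.012). *Sfrp2* overlaps 347 exon bases of the antisense gene *Gm26771*, whose reads cannot be told apart. Of the other pathway genes tested in m9, 6 of 11 ligands, 2 of 5 R-spondin and receptor genes and 1 of 16 other antagonists (*Cer1*) were higher, and none of the 14 receptors or 13 targets was called. The ligands with the largest log2 fold changes, *Wnt10b* (7.54), *Wnt7b* (7.30) and *Wnt11* (7.16), had at least 20 counts in 1, 1 and 3 of the 119 cells. *Rspo1* was at 68.2 CPM in the male pool and 104 CPM in the female one (24 cells at 20 counts), and *Rspo2* reached 20 counts in 1 cell, a male one.

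The community clustering split m9 into m12c (60 cells), m11c (53) and m16c (6 cells, too few for a test). Each was compared with the mean of the other community clusters, and m12c and m11c were not tested against each other. *Sfrp2* was at 793 and 1540 CPM in m12c, where *Nkd2* had 215 and 294 CPM, and both were called (log2 fold changes 7.81 ± 0.80 and 3.99 ± 0.77; edgeR's quasi-likelihood test, adjusted p = 1.1e-07 and 0.00068), against 6.07% of the 21329 genes tested. In m11c *Sfrp1* (872 and 1208 CPM), *Sfrp4* (48.7 and 115 CPM) and *Dkk2* were called, against 4.12%. The second value of each pair came from 5 female cells, beside 48 male ones, and *Sfrp4* had a count in 9 of the 53 cells. *Sfrp1* was not past the threshold with DESeq2 (adjusted p = 0.098). The genes were not confined to either cluster, with *Sfrp1* at 67.4 and 173 CPM and *Sfrp4* at 10.8 and 22.0 CPM in m12c, and *Nkd2* at 62.4 and 45.6 CPM in m11c. The *Dkk2* call in m9 and m11c is thin. In m9 it was at 42.2 CPM (male) and 0.250 CPM (female), 1 cell held 73.1% of the counts, and without that cell the male level was 11.5 CPM.

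*Sfrp4*, which like its relatives binds Wnt ligands, passed in no multilevel cluster. It was at 53.0 and 49.0 CPM in m5, at 34.4 and 38.4 CPM in m9, and at 12.48 CPM at most in each other cluster and pool except male m6 cells, where 1 of 9 cells gave 42.6 CPM. In community clusters it was higher in m11c and in m9c (4.60 ± 1.07; edgeR's quasi-likelihood test, adjusted p = 0.0092, against 2.89% of genes). In m5c it passed with edgeR's quasi-likelihood test (3.80 ± 1.12, adjusted p = 0.047, against 3.99%) but neither with DESeq2 (adjusted p = 0.35) nor with the replicate block (adjusted p = 0.12).

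*Frzb*, a secreted Frizzled-related protein, was highest in hepatic stellate cells. In m3, with 113 cells annotated cHSC (capsular stellate cells) and 73 annotated HSC, it was at 403 CPM (male) and 300.5 CPM (female), with at least 20 counts in 75 of 161 and 10 of 26 cells. Its log2 fold change was 3.89 ± 0.77 (edgeR's quasi-likelihood test, adjusted p = 0.015), and it was the only member called in m3, where 2.19% of genes were higher. The next clusters were m5 (267 and 217 CPM) and m10 (141 CPM, male cells only), and m9, m6 and m2 lay at 20.03 CPM or less. By annotation it was at 396 CPM in HSC and 379 CPM in cHSC, but the 4 female HSC had 5.03 CPM. *Rspo3*, an R-spondin that strengthens Wnt signals, was also higher in m3, at 345 and 414 CPM.

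*Sfrp1* was higher in the fibroblast clusters than in the stellate and mural clusters. It was at 1296 and 1600.0 CPM in m1, 741 CPM in m8, 594 CPM in m10, and 576 and 362 CPM in m9, whereas m2, m3, m5, m6 and m7 had between 3.32 and 137 CPM. It was called higher in m1 (3.65 ± 0.48; edgeR's quasi-likelihood test, adjusted p = 0.0034, against 0.63% of genes) and in m8 (2.97 ± 0.62, adjusted p = 0.044, against 0.496%), and lower in m2, m6 (against 1.06%) and m7 (against 0.335%). The m8 call was lost with DESeq2 (adjusted p = 0.16) and the m6 call with sums per plate (adjusted p = 1). Cluster m8 had male cells only and so gave 1 sum, and its p-value takes the spread from the other clusters and assumes that m8 varied like them. Of its cells 98.1% came from 1 plate, so that its level and that of the plate cannot be told apart.

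In m2, annotated artSMC (arterial smooth muscle), 4 members were lower, against 1.62% of genes. *Dkk3* was at 8.84 CPM (male) and 39.0 CPM (female) in m2 cells but between 280 and 860 CPM in all other mesenchymal clusters and pools (log2 fold change -4.51 ± 0.54; edgeR's quasi-likelihood test, adjusted p = 5.6e-05). *Sfrp1*, *Nkd2* and *Frzb* were the other 3, of which *Nkd2* was not past the threshold with sums per plate (adjusted p = 0.063) and *Frzb* not with the replicate block (adjusted p = 0.081). *Nkd1* was at 276 and 244 CPM in m2, within its range over the other clusters.

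The highest *Nkd1* level of all 30 clusters was in m6, annotated elaSMC, at 751 CPM over 9 male cells and 871 CPM over 25 female ones, compared with 88.5 to 461 CPM in the other mesenchymal clusters and pools. It was called there (1.54 ± 0.33; edgeR's quasi-likelihood test, adjusted p = 0.013, against 2.69% of genes). With sums of at least 10 cells, which removed the male m6 cells, the adjusted p was 0.057, and with sums per plate 1. Both *Rspo3* (128 and 155 CPM) and *Lgr6* (81.2 and 183.5 CPM), an R-spondin receptor, were higher in m6 too. In m5 the smallest adjusted p was that of *Frzb* (0.061) and in m10 that of *Sfrp1* (0.26), both by edgeR's quasi-likelihood test.

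Endothelial cells used a smaller set. Of the 10 genes, 7 passed the filter on low counts (*Wif1*, *Sfrp4* and *Notum* did not). *Frzb* was highest in e1, annotated CentralVein, at 40.1 CPM over 88 male cells and 104 CPM over 64 female ones, with 20 counts or more in 7 and 11 of them. Outside e1 it reached at most 14.5 CPM, and in e7, the other cluster annotated CentralVein (150 cells), the male pool had 0 counts and the female pool 0.549 CPM. The log2 fold change was 8.46 ± 1.19 (edgeR's quasi-likelihood test, adjusted p = 0.0024), and 1.32% of genes were higher in e1. The level was 60.9 CPM without the cell that held the most counts, compared with 68.2 CPM in all cells. The same cluster was high in *Rspo3* (2605 and 1920 CPM), *Wnt9b* (651 and 635 CPM) and *Wnt2* (896 and 786 CPM), an R-spondin and a pair of Wnt ligands, all 3 called, and all 3 were called in e7 as well.

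In e2, with 114 cells annotated PortalVein and 14 annotated PBV, *Dkk2*, *Frzb* and *Sfrp1* were higher (against 1.85% of genes) and *Dkk3* lower (against 0.0819%). *Dkk2* was at 56.6 CPM (male) and 8.10 CPM (female) and at 0.837 CPM or less in all other endothelial clusters and pools, but at 20 counts it was in 5 of 128 cells (7.72 ± 1.06; edgeR's quasi-likelihood test, adjusted p = 0.0010). *Frzb* (10.7 and 14.5 CPM) and *Sfrp1* (36.3 and 5.20 CPM) rested on still fewer cells. For *Frzb* 1 cell of each pool held 97.7% and 98.5% of the counts. For *Sfrp1* 1 male cell held 64.1%. The male cell with most *Dkk2*, at 429 counts, was 1 of the 14 annotated PBV. Markers were summed in the e2 cell with most counts of *Dkk2*, of *Frzb* (a female cell) and of *Sfrp1*. Mesenchymal markers were at 0 CPM in each, as was the median of the other e2 cells. Endothelial markers were at 4653, 5032 and 2758 CPM in this order, beside medians of 4732, 4708 and 4732 CPM. The markers of the male *Frzb* cell are not given.

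*Dkk3* in e2 was at 1.05 and 1.37 CPM with no cell at 20 counts, whereas the other endothelial clusters had 21.8 to 301 CPM except female e4 cells (2.51 CPM). The log2 fold change was -6.43 ± 1.45 (edgeR's quasi-likelihood test, adjusted p = 0.032). It was highest in e6, annotated lastSinusoid, at 218 and 301 CPM (2.44 ± 0.75, adjusted p = 0.26). *Nkd1* ran from 10.6 to 187 CPM outside e4, was highest in e7 when the pools were summed (156 CPM) and passed in no endothelial cluster, with adjusted p-values from 0.24 to 1 in edgeR's quasi-likelihood test.

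Cluster e4, annotated LEC, had an *Sfrp1* call (7.56 ± 1.23; edgeR's quasi-likelihood test, adjusted p = 0.0012, against 4.92% of genes) that rested on a single male cell. This cell held 99.3% of the *Sfrp1* counts in e4, and without it the level fell from 55.4 to 0.419 CPM. It also held most of the *Dkk3* and *Nkd1* counts of e4. Its summed mesenchymal markers were at 5205 CPM, above all 21 other e4 cells, whose median was 0, and its endothelial markers at 3906 CPM beside a median of 4814 CPM. Whether this well held RNA of more than 1 cell was not tested.

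**Figure D5:**
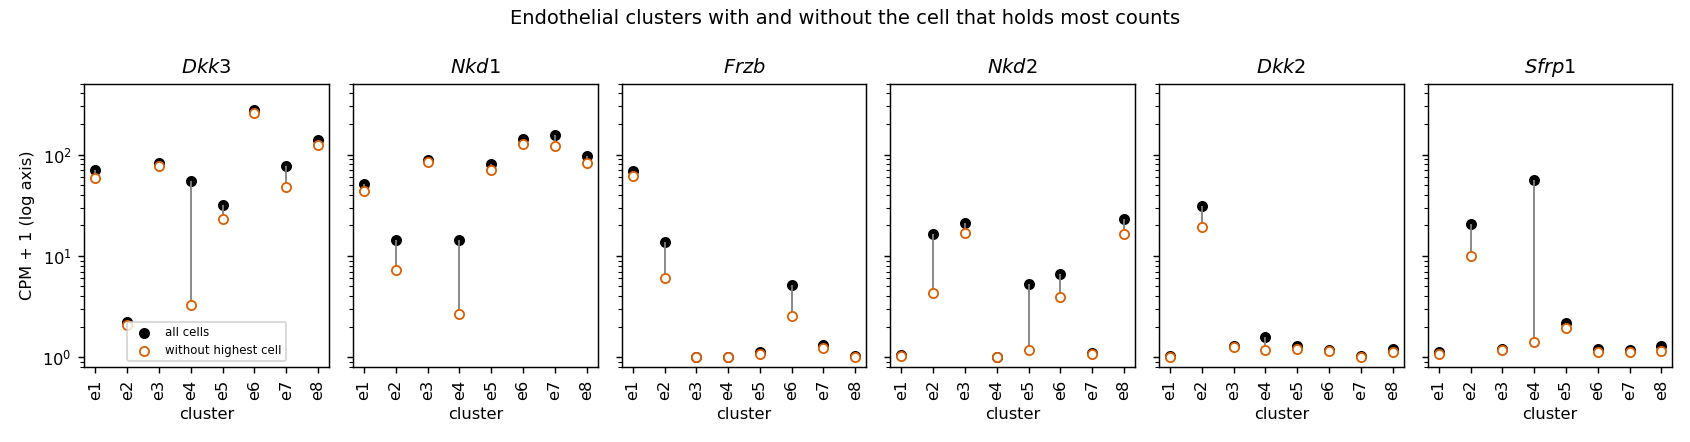
CPM + 1 (log axis) of 6 genes in the 8 endothelial clusters over all cells (filled) and without the cell that held the most counts of that gene (open). The open point of *Sfrp1* in e4 drops from 55.4 to 0.419 CPM, while that of *Frzb* in e1 stays at 60.9 CPM.

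In the 14 cells annotated PBV (peribiliary vasculature), *Dkk2* was at 109 CPM and *Nkd2* at 98.2 CPM. These levels came from 2 cells each at 1 count or more, and 1 cell held 90.7% of the *Dkk2* and 99.8% of the *Nkd2* counts. The *Dkk2* counts were in male cells and the *Nkd2* counts in female cells.

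Immune cells were near 0 for most members. Over the 7 immune clusters, *Nkd1* lay between 0.469 and 5.25 CPM except in i4 (20.8 CPM), the cluster that also had *Sfrp1* at 53.2 CPM. The cells annotated Cont, 24 of which were in i4, carried these values (*Sfrp1* 123 CPM), and the cell with the most *Sfrp1* counts had summed mesenchymal markers of 7357 CPM. All 18 class calls held without the Cont cells, an alternative added after seeing the data.

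Among parenchymal cells, cluster p2 (Cholangiocytes, 157 male and 37 female cells) was compared with the 4 hepatocyte clusters p1, p3, p4 and p5. Of 6 members tested 0 passed in edgeR's quasi-likelihood test, where 12.3% of genes were higher and 7.28% lower in cholangiocytes. At an unadjusted p under 0.05 in edgeR's quasi-likelihood test 3 differed, *Dkk3*, *Sfrp2* and *Notum*, DESeq2 called 4 (*Dkk3*, *Sfrp2*, *Nkd1* and *Notum*), and edgeR without a filter on low counts called *Notum*. Of all genes tested, 30.9% had an unadjusted p under 0.05, 27.1% were called by DESeq2 and 13.8% by edgeR without a filter, in either direction. *Dkk3* in p2, at 5.03 and 50.9 CPM, came from 1 cell in each pool for 86.6% and 95.3% of its counts. In p2, 1 of 6 other antagonists tested was lower (*Igfbp4*) and 3 were higher, among them *Sfrp5*, a relative of *Sfrp1*, at 53.8 CPM in male cholangiocytes and at 0 in the hepatocyte clusters.

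Over all cells, *Nkd1* was uneven among the hepatocyte clusters. It was at 51.6 CPM in p3 and 22.1 CPM in p5, compared with 1.29 CPM in p4 and 0.953 CPM in p1. At 20 counts this was 2 of 23 cells in p3 and 3 of 57 in p5, against 0 of 59 in p4 and 0 of 64 in p1. In p3, 1 cell held 78.2% of the *Nkd1* counts, and its 5 mural markers summed to 14086 CPM beside a median of 9.03 CPM in the other p3 cells. Without that cell *Nkd1* in p3 was at 11.7 CPM. In p5 the cell with most counts held 41.0% of them and had mural markers of 811 CPM (median of the others 10.3 CPM), and without it *Nkd1* was at 13.3 CPM. *Notum* had 31.2 CPM in p3 and 5.84 CPM in p4, each from 1 cell at 20 counts. That cell of p3 had summed endothelial markers of 1295 CPM, above all other p3 cells (median 34.4 CPM), and mesenchymal markers of 472 CPM beside a median of 95.3 CPM. The part of these in the *Notum* value was not tested. Clusters p3, p4 and p5 had male cells only, so no test was made between them.

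Genes with the most similar level over the 30 clusters were found by Pearson's r of log2(CPM + 1) among 16593 genes, given as a description without a test. For *Wif1* they were *Syt6* (r = 0.95), *Gm13716* (0.93) and *RP24.176O2.2* (0.92), and for *Dkk2* *Cybrd1* (0.86), *Gng4* (0.83) and *Scin* (0.83). *Sfrp1* followed *C7* (0.96), *Itgbl1* (0.95) and *Armh4* (0.94), and *Dkk3* followed *Prelp* (0.95). *Sfrp2* and *Sfrp4* were near each other (0.87), as were *Dkk3* and *Nkd1* (0.89). The closest partners of *Notum*, *Notumos* and *Myadml2os*, and of *Sfrp2*, *Gm26771*, were genes that overlap them on the opposite strand.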

How the data were processed

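Single-cell Smart-seq2 libraries of sorted liver cells were sequenced and aligned by the authors. Their processing notes name bcl2fastq, Bowtie, Bowtie2, Subread, featureCounts, Seurat, GRCm38 and mm10, without versions. The authors deposited raw read counts per gene and cell, without molecular identifiers or strand, together with their cluster and annotation labels. The table held 46609 rows, of which 92 were spike-ins and were left out. No doublet caller was run, since cells had been gated by scatter at the sort.

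Counts were summed over the cells of each class or cluster and pool (at least 5 cells). Units were compared with the mean of the other units, and cholangiocytes with hepatocyte clusters, by edgeR's quasi-likelihood test (edgeR 4.0.16, R 4.3.3) with TMM, filterByExpr and Benjamini-Hochberg adjustment over all genes tested, called at an adjusted p of 0.05 and an absolute log2 fold change of 1. Totals per cell ran from 47063 to 1128421 counts, and intervals and limits cover counting error only. Alternative fits were DESeq2 1.42.0, RLE factors, no filter, a replicate block, sums per plate, sums of 10 or 3 cells and thinning to 50000 counts. With a pool left out, the log2 CPM ratio within the other pool (0.5 CPM added) was used in place of a fit. The female mesenchymal sums shared 1 plate by the labels, so for mesenchymal clusters a replicate block that ended a call is given beside it. The fits were tested on simulated data.

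The text names all 10 members, up to 3 called genes per direction from the other pathway lists and the 3 genes nearest in pattern. Further pathway genes were chosen after their values were seen. The members and lists were chosen with earlier results of these data known. Python 3.11.15, numpy 2.4.6, scipy 1.17.1, pandas 2.3.3 and matplotlib 3.10.9 were used.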

Additional observations from a re-analysis of the deposited data

Results flagged for a closer look

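The log2 ratio of a member in a cluster was taken over the mean of the other clusters, with 0.5 CPM added. In 10 cases, among mesenchymal and endothelial multilevel clusters, it had opposite signs in the male and the female pool. Only cases were kept where both ratios exceeded 1 in size and 1 pool reached 10 CPM, so smaller disagreements are not counted. The difference between the pools was not tested, and several pools held few cells. In m4, *Notum* was at 6.56 in male and -1.06 in female cells (151 and 0 CPM), and *Frzb* at 1.18 and -3.61 (52.3 and 1.49 CPM). *Dkk2* in m9 was at 5.03 and -1.03 (42.2 and 0.250 CPM). In m6, *Nkd2* was at -1.36 and 1.12 (7.95 and 55.0 CPM) and *Sfrp4* at 2.72 and -1.67 (42.6 and 1.01 CPM). In m7, *Notum* was at -2.22 and 6.39 (0.133 and 45.4 CPM), the female value from 1 cell, and *Sfrp2* at 2.13 and -1.13 (20.3 and 13.2 CPM). Among endothelial clusters, *Dkk3* in e4 was at 2.03 and -4.58 (168 and 2.51 CPM). *Nkd2* in e3 was at 4.15 and -3.11 (20.5 and 0 CPM, the latter from 6 cells). *Nkd2* in e5 was at -1.53 and 3.48 (0.166 and 26.8 CPM), the female value largely from 1 cell with 116 counts.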

How the results depend on the processing

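Under every refit, 16 of 18 class calls held (not *Frzb* in epithelial and *Nkd2* in immune cells). So did 12 of 18 mesenchymal multilevel, 11 of 29 mesenchymal community, 2 of 6 endothelial multilevel and 3 of 16 endothelial community calls. With 1 pool left out no fit was made, and the log2 CPM ratio within the other pool (0.5 CPM added) was set against the fitted value. By this measure, without the male and the female pools, 12 and 11 of the 18 class values moved by more than the replicate spread. Such a move includes the change of measure as well as the loss of a pool. The higher calls in mesenchymal clusters rose from 12 to 20 without a filter on low counts. Those in endothelial clusters went from 5 to 3 with the replicate block and to 13 with community clusters (added after seeing the data). Between cholangiocytes and hepatocytes the count went from 0 to 4 with DESeq2 and to 1 without a filter, and sums per plate gave no value. Apart from the shared plate of the female mesenchymal cells, the pools are not known to pair (correlation of deviations 0.0876 to 0.108 over 6 class pairs, 0.00065 to 0.166 over 28 mesenchymal multilevel, -0.038 to 0.150 over 55 mesenchymal community and -0.0242 to 0.111 over 28 endothelial pairs). With the replicate block the adjusted p was 0.059 for *Frzb* in epithelial cells, 0.20 for *Notum* in m4 (log2 fold change 5.88), 0.081 for *Frzb* in m2, and 0.055, 0.061 and 0.057 for *Frzb*, *Sfrp1* and *Dkk3* in e2. Some log2 fold changes reversed, and the cause was not tested. *Sfrp1* in e4 was -1.28 with sums per plate and -0.85 with at least 10 cells, and in e4c -0.19 and -0.50. *Dkk2* in e5c was -3.23 per plate, *Nkd2* in m6c -5.04 with at least 10 cells, and *Sfrp1* in p2 -0.11 with DESeq2 and with RLE factors. With 1 pool left out, ranges were -1.06 to 6.56 for *Notum* in m4, -0.89 to 7.08 in m4c, -1.39 to 6.35 in m8c and 0 to 2.46 in e3c. They were -1.03 to 5.03 for *Dkk2* in m9, -1.12 to 6.08 in m11c and -0.62 to 8.43 in e5c, -4.10 to 3.22 for *Nkd2* in m6c, -1.02 to 6.68 in e5c and -0.53 to 4.77 in e6c, and -0.059 to 6.85 for *Sfrp1* in e4. The female mesenchymal cells came from 1 plate, so sex and plate cannot be told apart there, and clusters under 20 cells per pool limit what can be seen.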
